A study of Mus musculus with 6 samples.

Results

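Genes that break down haem and handle iron, 10 of the 28795 genes in the deposited table, were compared between days of osteoclast formation from mouse bone marrow monocytes. They were found by their symbols. They are the haem oxygenases Hmox1 and Hmox2, the biliverdin reductases Blvra and Blvrb, the haem transporter Slc48a1, the iron exporter Slc40a1, the metal transporter Slc11a1, the transferrin receptor Tfrc and the ferritin subunits Fth1 and Ftl1. RNA sequencing was done on 3 libraries at day 5 and 3 at day 0 of exposure to RANKL (50 ng/ml), the cytokine that drives osteoclast formation. Cells of both days were kept in M-CSF (50 ng/ml), which keeps macrophage precursors alive. No strain or genotype is given in the labels. No day 5 culture lacking RANKL was analysed here, so RANKL and time in culture cannot be told apart. Whether replicates are separate animals or cultures is not stated, so the p-values reflect library-to-library spread alone, which may be technical.

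Haem, the iron-holding ring of haemoglobin and of many enzymes, is opened by haem oxygenase into biliverdin, carbon monoxide and iron. Biliverdin reductase then turns biliverdin into bilirubin. Macrophages that take up red blood cells carry haem out of the phagolysosome through SLC48A1, store the freed iron in ferritin or release it through ferroportin, the product of Slc40a1. Most other cells obtain iron the opposite way, by taking up transferrin through the transferrin receptor. Iron regulatory proteins tie these steps together: they bind a short RNA hairpin, the iron-responsive element, which lies in the 5′ UTR of the ferritin and ferroportin mRNAs and several times in the 3′ UTR of Tfrc mRNA. Bound at the 5′ end they are known to block translation, and bound at the 3′ end of Tfrc they are known to protect the mRNA from decay.

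The hairpin sequences are shown because the member with the largest rise, the member with the largest fall and both ferritins carry them. The spliced protein-coding transcripts of GENCODE M21 (mouse build GRCm38) were searched on the sense strand for an unpaired C and 5 bases, then the loop CAGTGN, then 5 bases that pair with the 5 before the loop. An outer stem of 5 bases with at least 4 pairs was also required, and G with T counted as a pair. A match in a UTR was found in 17 of 21899 genes (0.0776%), and 4 of them were Fth1, Ftl1, Slc40a1 and Tfrc. A match describes these letters only, and no binding was measured. Each line gives a site of 27 bases from 5′ to 3′, with its 6-base loop in capitals.
Fth1, 5′ UTR, chr19:9982733-9982759, plus strand: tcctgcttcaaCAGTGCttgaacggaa
Ftl1, 5′ UTR, chr7:45459780-45459806, minus strand: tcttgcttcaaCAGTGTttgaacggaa
Slc40a1, 5′ UTR, chr1:45925466-45925492, minus strand: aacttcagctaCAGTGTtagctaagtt
Tfrc, 3′ UTR, chr16:32631220-32631246, plus strand: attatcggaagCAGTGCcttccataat
Tfrc, 3′ UTR, chr16:32631599-32631625, plus strand: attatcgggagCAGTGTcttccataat
Tfrc, 3′ UTR, chr16:32631664-32631690, plus strand: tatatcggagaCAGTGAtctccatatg
Tfrc, 3′ UTR, chr16:32631711-32631737, plus strand: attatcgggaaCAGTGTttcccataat

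Library totals ran from 64616609 to 82721513 counts. The members had 2641 to 545589 counts per library. All 10 osteoclast markers examined, among them Acp5 and Ctsk, rose by the rule given below, where 5.84% of all tested genes did. Their summed level was 11022 to 11813 FPKM at day 5 against 153 to 213 FPKM at day 0. FPKM is the authors' value, scaled for gene length and sequencing depth. Of 10 macrophage markers 8 fell, where 6.47% of all tested genes did, and none was at 0. At any size, with an adjusted p under 0.05 (edgeR), 9 of these markers were lower and 1 was higher at day 5. The 10 genes summed to 1214 to 1426 FPKM at day 5 and 1581 to 1653 FPKM at day 0. Stromal and osteoblast markers were also present. Their 12 genes summed to 1235 to 1332 FPKM at day 5 and 1615 to 2328 FPKM at day 0. Of the 10 that were tested, 2 fell by the rule. At any size all 10 had an adjusted p under 0.05 (edgeR) and were lower at day 5, where 28.8% of all tested genes were. These are bulk samples, so fewer cells of a type and less RNA per cell cannot be told apart, and the part of these markers in the results below was not tested. Day 0 replicate 1 had 4.09% of its counts in the 18S-related gene CT010467, against 0.158% to 0.508% in the other 5 libraries.

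Tfrc rose, while Hmox1, the iron exporter Slc40a1, the transporters Slc48a1 and Slc11a1, and Blvrb fell. A gene was counted as risen or fallen when edgeR's quasi-likelihood test gave a Benjamini-Hochberg adjusted p under 0.05 over 11908 genes and the log2 difference, day 5 minus day 0, was at least 1 in size. By this rule 1 of the 10 members rose, where 5.84% of all tested genes did. It was Tfrc. Another 5 fell, where 6.47% of all tested genes did, namely Slc40a1, Hmox1, Slc11a1, Slc48a1 and Blvrb. The remaining 4, Fth1, Ftl1, Blvra and Hmox2, did not pass the rule. At any size 9 of the 10 had an adjusted p under 0.05, against 55.5% of all genes, with 1 higher and 8 lower at day 5. The libraries of the 2 days did not overlap in FPKM for 9 members, where 63.2% of all tested genes had no overlap. The median log2 difference of the members was -0.97, and that of all tested genes was -0.004.

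**Figure D1:**
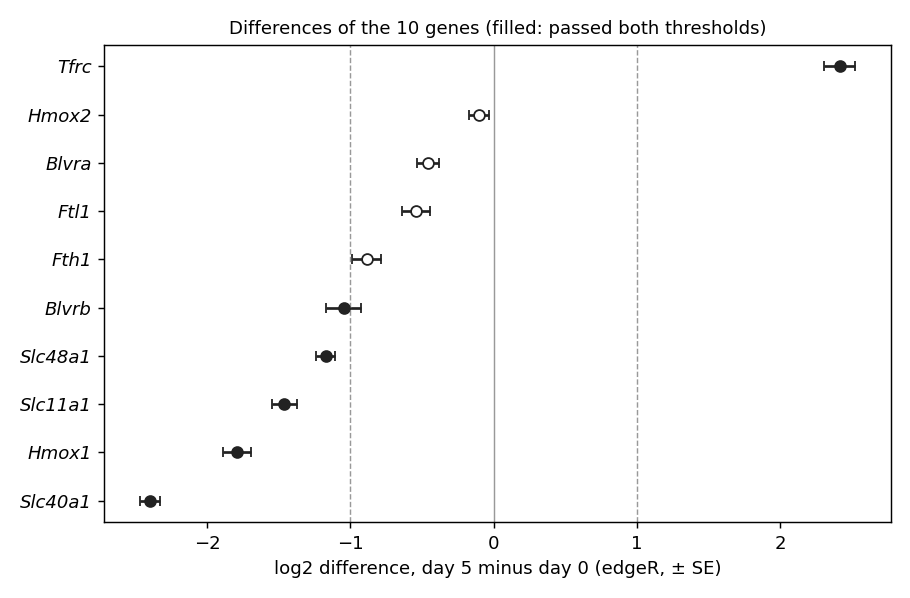
Log2 difference of each gene, day 5 minus day 0, from edgeR with its standard error; filled points passed both thresholds and the dashed lines mark a log2 difference of 1 in size. Tfrc stands alone on the right at 2.41, and Slc40a1 lies farthest to the left at -2.40.

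Hmox1 encodes the inducible haem oxygenase and lies on chromosome 8, 75093621 to 75100589, in coordinates that match GRCm38. Its level was 206, 167 and 167 FPKM in the day 5 libraries, against 605, 594 and 594 FPKM at day 0. The highest day 5 library lay far below the lowest day 0 library. The fall was 3.46-fold, with a log2 difference of -1.79 ± 0.10 (SE, adjusted p = 5.13e-08, edgeR quasi-likelihood test). By mean FPKM Hmox1 was the 230th most abundant of the 11908 genes at day 5 and the 45th at day 0.

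Hmox2, the constitutive haem oxygenase (chromosome 16, 4726361 to 4766742), had 44.2, 42.3 and 43.0 FPKM at day 5 and 46.8, 44.6 and 41.8 FPKM at day 0. The days overlapped, which was so for no other member. The log2 difference was -0.10 ± 0.07 (adjusted p = 0.245, edgeR). A shift this small was not separable from the replicate spread. Hmox2 shares 892 exon bases with Cdip1 on the opposite strand, whose counts were 36.3% of those of Hmox2 at day 5 and 35.5% at day 0. The sources used here do not say whether counting used strand, so its level is uncertain.

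The level of Hmox1 in FPKM was 4.67, 3.94 and 3.88 times that of Hmox2 in the day 5 libraries, against 12.9, 13.3 and 14.2 times at day 0. The libraries of the 2 days did not overlap in this ratio, which does not depend on how libraries are scaled and was not tested. As a share of the summed FPKM of both genes, Hmox1 made up 79.5% to 82.4% at day 5 and 92.8% to 93.4% at day 0. Hmox1 was the more abundant of the pair in all 6 libraries.

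Both biliverdin reductases were lower at day 5, and only Blvrb passed the size threshold. Blvrb, also known as flavin reductase (chromosome 7, 27447978 to 27466144), had 32.0, 30.8 and 29.4 FPKM at day 5 and 63.5, 71.0 and 48.2 FPKM at day 0. The day 0 libraries were spread more widely than those of any other member relative to their mean, and all lay above day 5. The log2 difference was -1.05 ± 0.12 (adjusted p = 2.15e-05, edgeR), so Blvrb fell close to the threshold. The log2 difference was -0.98 without day 0 replicate 1, -0.92 without day 0 replicate 2, and -0.95 in limma on log2(FPKM + 1), each under the size threshold.

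Blvra, which encodes the main biliverdin reductase of adult tissues (chromosome 2, 127070665 to 127097084), had 18.3, 20.5 and 21.02 FPKM at day 5 and 26.9, 27.3 and 24.6 FPKM at day 0. The days did not overlap. The log2 difference was -0.46 ± 0.08 (adjusted p = 4.75e-04, edgeR). The ratio of Blvra to Blvrb in FPKM was 0.574, 0.664 and 0.715 at day 5 and 0.423, 0.385 and 0.510 at day 0. It was higher in each day 5 library than in any day 0 library.

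Slc48a1 (HRG1), which carries haem out of the phagolysosome, fell 2.26-fold. Its level was 71.9, 67.4 and 65.6 FPKM at day 5, against 144, 150 and 149 FPKM at day 0 (chromosome 15, 97778520 to 97792692). The libraries of each day lay close together and the days were well apart. The log2 difference was -1.17 ± 0.07 (adjusted p = 1.06e-07, edgeR). The gene shares 29 exon bases with Hdac7 on the opposite strand, whose counts were 16.0% of its own at day 5 and 10.1% at day 0.

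**Figure D2:**
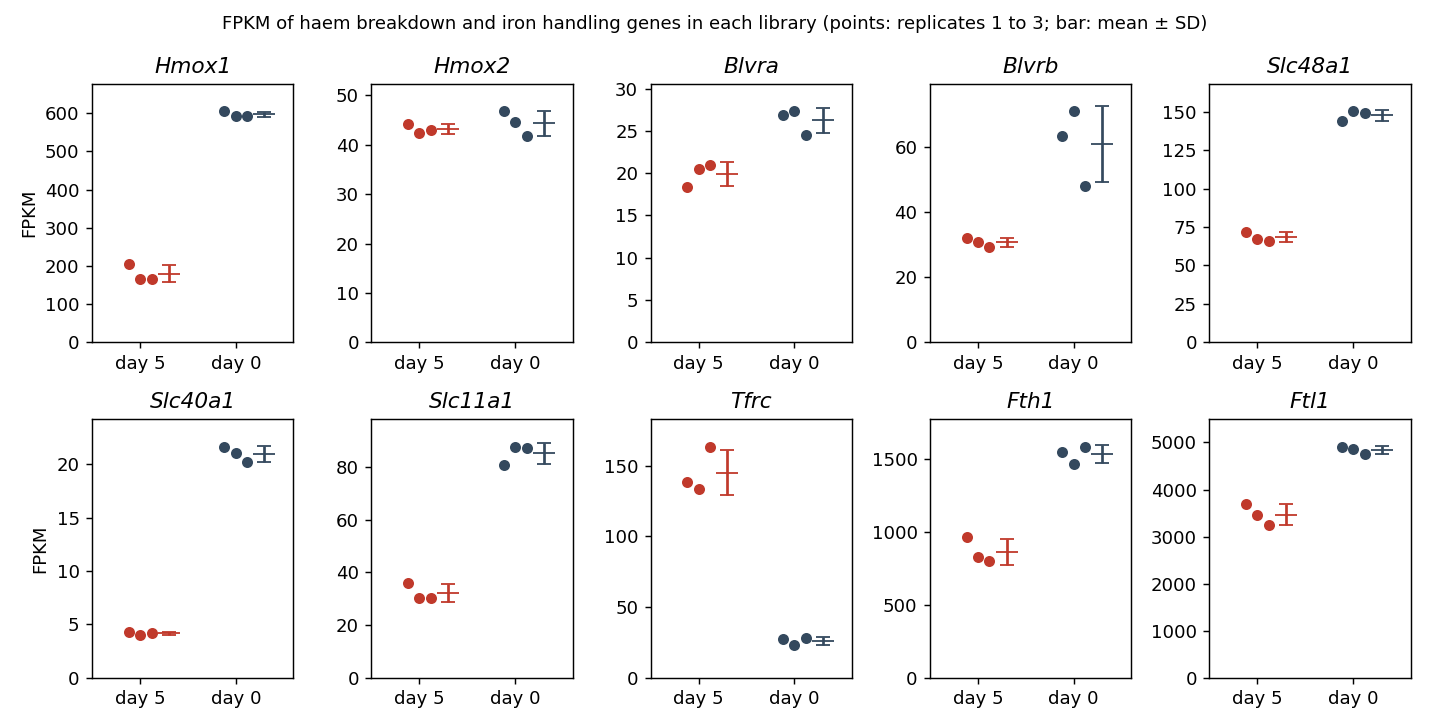
FPKM of each of the 10 genes in every library, with day 5 in red and day 0 in dark blue; points are replicates 1 to 3, bars are mean ± SD (n = 3), and each panel has its own axis from 0. Tfrc is higher at day 5 (133 to 163 FPKM against 22.9 to 27.8 FPKM), Hmox2 overlaps between days, and the other 8 genes are lower at day 5.

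Slc40a1, which encodes ferroportin, the iron exporter of mammalian cells (chromosome 1, 45908068 to 45926523, minus strand), fell more than any other member. Its level was 4.31, 3.97 and 4.18 FPKM at day 5 and 21.7, 21.1 and 20.2 FPKM at day 0. Each day 5 library was far below each day 0 library. The fall was 5.27-fold, with a log2 difference of -2.40 ± 0.07 (adjusted p = 9.16e-10, edgeR). In mean FPKM it moved to place 7671 of 11908 genes at day 5, against place 2182 at day 0.

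Tfrc, the transferrin receptor (chromosome 16, 32608920 to 32632794), had 138, 133 and 163 FPKM at day 5, against 27.4, 22.9 and 27.8 FPKM at day 0. It was the member that rose, and the lowest day 5 library stood well above the highest day 0 library. The rise was 5.33-fold, with a log2 difference of 2.41 ± 0.11 (adjusted p = 9.58e-09, edgeR). By mean FPKM it was the 282nd most abundant gene at day 5 and the 1734th at day 0. Red cell precursors are also known for abundant Tfrc. The 9 erythroid markers examined summed to 1.04 to 3.20 FPKM at day 5 and 2.76 to 9.37 FPKM at day 0, Rhag was at 0 in every library, and Klf1, Epor and Alas2 stayed under 1 FPKM. The part of such cells in the level of Tfrc was not tested.

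The ratio of the importer to the exporter was higher at day 5. Tfrc was at 32.1, 33.6 and 39.1 times the FPKM of Slc40a1 in the day 5 libraries, against 1.27, 1.09 and 1.38 times at day 0. The mean log2 ratio was 5.12 ± 0.15 at day 5 and 0.31 ± 0.17 at day 0 (SD, n = 3 each). This was the largest shift among the 5 gene pairs examined. The pair joins the member that rose with the member that fell most, so this rank follows from their single differences. The level of the ratio depends on the gene length used: in counts per kilobase of the longest coding transcript and scaled for depth, Tfrc had 190.4 ± 21.02 and Slc40a1 had 11.5 ± 0.428 at day 5, while Tfrc had 34.3 ± 3.68 and Slc40a1 had 58.3 ± 2.35 at day 0 (SD, n = 3 each). On that scale the exporter was the higher of the pair at day 0.

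Slc11a1 (NRAMP1), which moves divalent metals across the phagosome membrane of macrophages, fell 2.75-fold (chromosome 1, 74375195 to 74386052). Its level was 36.2, 30.3 and 30.4 FPKM at day 5 and 80.7, 87.8 and 87.4 FPKM at day 0, with no overlap. The log2 difference was -1.46 ± 0.08 (adjusted p = 9.09e-08, edgeR). Its paralog Slc11a2 (DMT1), which carries iron out of the endosome after transferrin uptake, had 20.0, 19.5 and 19.6 FPKM at day 5 and 10.5, 11.4 and 10.5 FPKM at day 0. The log2 difference of Slc11a2 was 0.80 (adjusted p = 9.62e-07, edgeR), under the size threshold. Slc11a1 made up 60.8% to 64.4% of the summed FPKM of the 2 paralogs at day 5 and 88.5% to 89.3% at day 0.

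**Figure D3:**
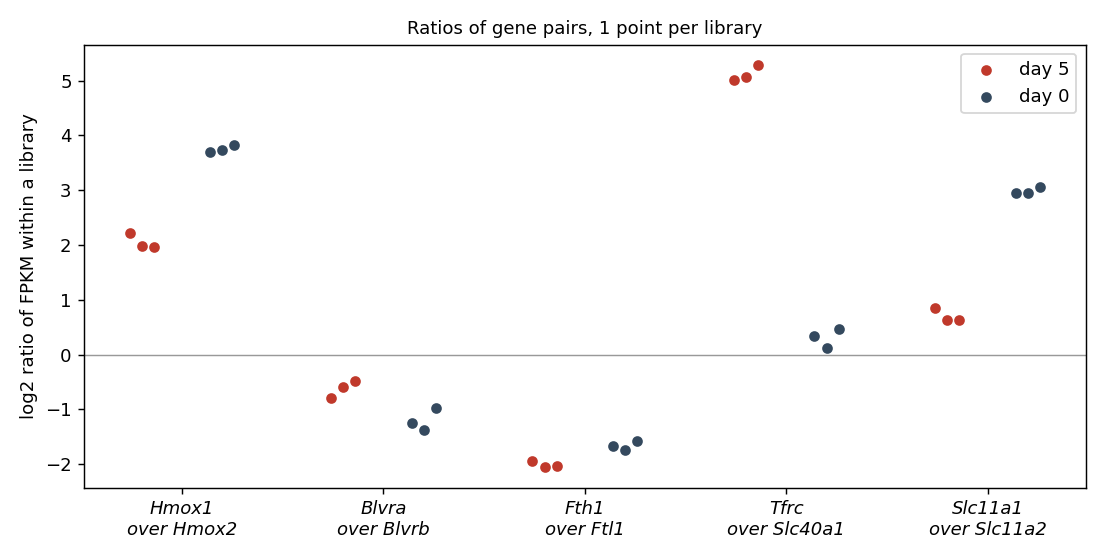
Log2 ratio of FPKM within a library for 5 gene pairs, 1 point per library, with day 5 in red left of day 0 in dark blue. The ratio of Tfrc to Slc40a1 is near 5 at day 5 and between 0.12 and 0.46 at day 0, while the ratios of Hmox1 to Hmox2 and of Slc11a1 to Slc11a2 are lower at day 5.

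Both ferritin subunits were lower at day 5 by less than the size threshold, and remained among the most abundant transcripts. Fth1, the heavy subunit with ferroxidase activity (chromosome 19, 9980598 to 9985092), had 963, 830 and 798 FPKM at day 5 and 1549, 1462 and 1583 FPKM at day 0. Ftl1, the light subunit that aids mineral formation (chromosome 7, 45457944 to 45459884, minus strand), had 3692, 3461 and 3249 FPKM at day 5 and 4909, 4867 and 4748 FPKM at day 0. Neither gene overlapped between days. The log2 differences were -0.89 ± 0.10 for Fth1 (adjusted p = 2.63e-05, edgeR) and -0.54 ± 0.10 for Ftl1 (adjusted p = 5.67e-04, edgeR).

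Summed, Fth1 and Ftl1 made up 0.793% ± 0.0590 of a library's counts at day 5 and 1.23% ± 0.0254 at day 0 (SD, n = 3 each). By mean FPKM Ftl1 ranked 7th of all tested genes at day 5 and 4th at day 0. The heavy subunit made up a smaller part of ferritin RNA at day 5: the ratio of Fth1 to Ftl1 in FPKM was 0.261, 0.240 and 0.246, against 0.316, 0.300 and 0.333 at day 0. Each day 5 ratio lay below each day 0 ratio. Ftl1 has 8 copies elsewhere in the table that match its transcript at 90% identity or more over at least 200 bases, among them Ftl1-ps1. Their summed counts were 1.40% of those of Ftl1 at day 5 and 1.49% at day 0, and the treatment of reads that fit several copies is not stated.

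The order of levels was Ftl1, Fth1, Hmox1, Tfrc, Slc48a1, Hmox2, Slc11a1, Blvrb, Blvra and Slc40a1 at day 5, by mean FPKM. At day 0 it was Ftl1, Fth1, Hmox1, Slc48a1, Slc11a1, Blvrb, Hmox2, Blvra, Tfrc and Slc40a1. Neighbours overlapped between libraries only for Slc11a1 and Blvrb at day 5 and for Blvra and Tfrc at day 0. The authors' FPKM divide by a gene length that is 1.13 to 2.81 times the longest protein-coding transcript, with the greatest excess for Blvrb, Slc40a1 and Fth1. FPKM therefore sets those 3 genes lower than a value per coding transcript would, while differences between days are not touched by it. Per kilobase of coding transcript, scaled for depth, Blvrb moved above Slc48a1 at day 5, at 86.3 ± 3.37 against 76.9 ± 3.39, and so above Hmox2 and Slc11a1. At day 0 on the same scale Tfrc, at 34.3 ± 3.68, was the lowest of the 10. Slc40a1 at 58.3 ± 2.35 and Blvra at 57.6 ± 3.36 were within their spread at day 0, as were Blvrb at 172 ± 32.9 and Slc48a1 at 167 ± 2.93.

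Other genes of haem and iron handling were read from 8 lists. Of 97 listed genes 80 were tested, 6 rose, 6 fell and 68 did not pass the rule, so 15.0% were called against 12.3% of all tested genes. Their median log2 difference was 0.23. In haem synthesis 0 of 8 genes were called by edgeR, and DESeq2 and limma on log2(FPKM + 1) also called 0, while 3 had an unadjusted p under 0.05 in edgeR, as 60.4% of all tested genes did. Its most abundant member, Alas1, the first enzyme of the pathway, had 16.4 ± 2.28 FPKM at day 5 and 16.8 ± 0.485 FPKM at day 0 (SD, n = 3 each), a log2 difference of -0.09 ± 0.10 (adjusted p = 0.443, edgeR). At any size 2 genes of haem synthesis had an adjusted p under 0.05, Urod and Fech, both higher at day 5.

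Of 9 tested genes of haem and haemoglobin transport 1 rose and 2 fell, where 5.84% and 6.47% of all tested genes did. Cd163, the scavenger receptor for haemoglobin bound to haptoglobin, fell to 0.730, 0.760 and 0.710 FPKM at day 5, against 4.15, 4.53 and 4.82 FPKM at day 0, a log2 difference of -2.68 ± 0.11 (adjusted p = 5.88e-09, edgeR). Lrp1, a receptor for haem bound to haemopexin among many other ligands, fell 3.00-fold to 84.0, 75.2 and 69.1 FPKM at day 5, against 196, 213 and 249 FPKM at day 0. Neither gene overlapped between days. Slc46a1, a folate transporter first described as a haem carrier, rose to 6.09 ± 0.762 FPKM at day 5, against 2.76 ± 0.346 FPKM at day 0, a log2 difference of 1.08 ± 0.13 (adjusted p = 4.16e-05, edgeR). The rise missed the size threshold without day 5 replicate 1, at a log2 difference of 0.98, and in limma on log2(FPKM + 1), at 0.91. Of the 6 tested markers of iron-recycling macrophages, a list that itself holds Cd163, 3 fell, where 6.47% of all tested genes did. At any size, 5 had an adjusted p under 0.05 and were lower at day 5, where 28.8% of all tested genes were. The list also holds Spic, which was higher at day 5, with a log2 difference of 0.93 (adjusted p = 3.74e-04, edgeR). Its 9 genes summed to 34.7 to 38.5 FPKM at day 5 and 69.9 to 78.0 FPKM at day 0. Itgad, Clec1b and Timd4 of that list stayed under 1 FPKM, and the part of these cells in the result was not tested.

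Of 11 genes of iron uptake and endosomal release 2 rose and 4 fell, where 5.84% and 6.47% of all tested genes did. Both that rose encode metalloreductases, which convert ferric to ferrous iron. Steap2 and Steap1, also on the list, did not pass the rule. Their log2 differences were -0.34 (adjusted p = 0.0026, edgeR) and 0.08 (adjusted p = 0.666, edgeR). Steap4 rose to 14.0, 15.4 and 14.5 FPKM at day 5, against 0.220, 0.160 and 0.270 FPKM at day 0, a log2 difference of 5.98 ± 0.16 (adjusted p = 5.27e-10, edgeR). Steap3, the ferrireductase of the transferrin cycle in red cell precursors, rose to 9.75, 10.7 and 9.32 FPKM at day 5, against 4.03, 3.61 and 4.21 FPKM at day 0, a log2 difference of 1.27 (adjusted p = 8.21e-07, edgeR). Neither gene overlapped between days.

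Transferrin itself, Trf, fell 5.24-fold to 16.6 ± 1.39 FPKM at day 5, against 83.6 ± 7.87 FPKM at day 0. Hfe, which binds the transferrin receptor and is mutated in haemochromatosis, fell 4.42-fold to 6.76 ± 0.182 FPKM at day 5, against 28.7 ± 3.64 FPKM at day 0. Tfr2, the second transferrin receptor, and Slc39a8, a zinc and iron importer, also fell at low levels. Tfr2 had 1.08, 1.34 and 1.24 FPKM at day 5 and 2.41, 3.11 and 3.07 FPKM at day 0, and Slc39a8 had 0.610, 0.710 and 0.640 FPKM at day 5 and 1.40, 1.79 and 1.73 FPKM at day 0. On the log2(FPKM + 1) scale, limma gave log2 differences of -0.80 for Tfr2 and -0.67 for Slc39a8, which missed the size threshold.

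Of all tested genes 5.84% rose and 6.47% fell by the rule in edgeR. Of 20 genes of mitochondrial iron and iron-sulfur clusters 3 rose and 0 fell. DESeq2 also called 0 lower, as did limma, and 1 lower gene had an unadjusted p under 0.05. At any size 18 had an adjusted p under 0.05 and a higher level at day 5, where 26.6% of all genes did. The median log2 difference of the list was 0.65. Abcb8, a mitochondrial transporter linked to iron export, rose to 14.6 ± 0.915 FPKM at day 5, against 5.43 ± 0.175 FPKM at day 0, a log2 difference of 1.36 ± 0.08 (adjusted p = 1.26e-07, edgeR). Iba57, an assembly factor of iron-sulfur clusters, had a log2 difference of 1.01 ± 0.13 (adjusted p = 5.91e-05, edgeR). It was under the size threshold, at 0.95, without day 5 replicate 2 and likewise at 0.95 without day 0 replicate 2, and limma on log2(FPKM + 1) gave 0.70. Fdx2, a mitochondrial ferredoxin, rose with a log2 difference of 1.64 ± 0.33 (adjusted p = 0.0013, edgeR). It shares 1034 exon bases on the same strand with Gm38431, which had more counts than Fdx2 on both days and was lower at day 5, so the value of Fdx2 is uncertain.

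**Figure D4:**
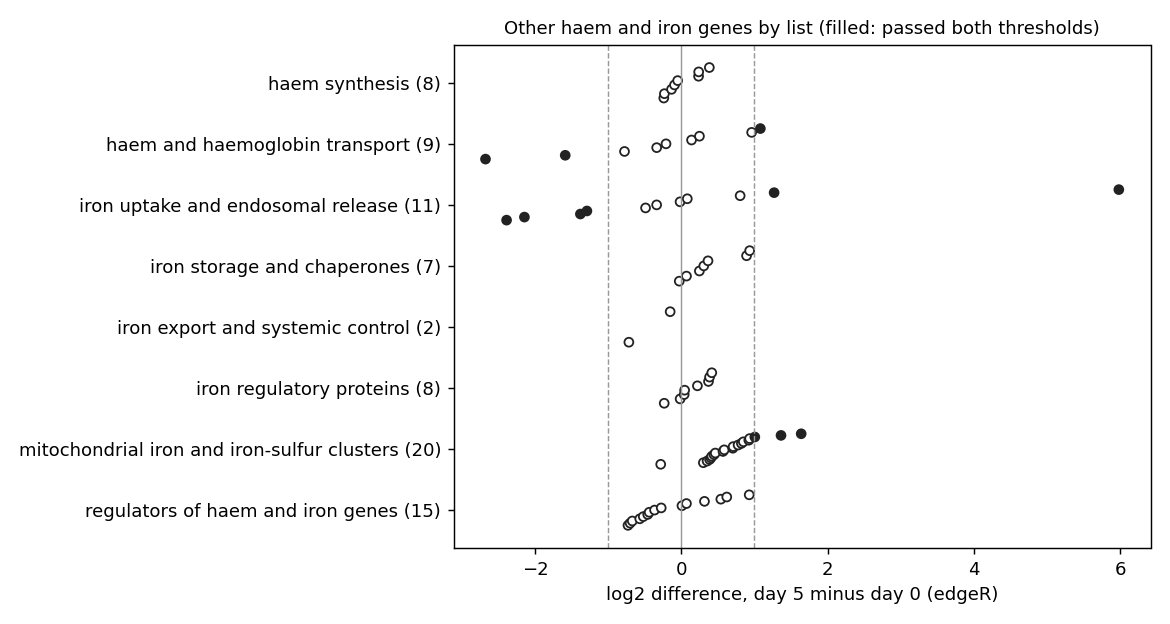
Log2 difference, day 5 minus day 0, of the tested genes of 8 lists, with the number tested in brackets; each point is a gene, filled where it passed both thresholds, and height within a row only separates points. The row of mitochondrial iron and iron-sulfur genes lies almost wholly right of 0, and Steap4 stands at 5.98.

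Outside the 10 members, the lists of storage, regulation and export held no called genes. The exporter Slc40a1, which fell, and both ferritins are members and are not on these lists. Of 7 tested genes of iron storage and chaperones, 8 of the iron regulatory protein system, 2 of export and systemic control and 15 transcriptional regulators, edgeR, DESeq2 and limma each called 0. At an unadjusted p under 0.05 in edgeR, 5 of the storage genes differed between days, with 5 of the regulatory protein system, 1 of export and 13 of the regulators, against the 60.4% of all tested genes. The most abundant member of each by mean FPKM over both days was Pcbp1, an iron chaperone that loads ferritin, with a log2 difference of 0.31 ± 0.07, Skp1a, a ubiquitin ligase subunit, with 0.04 ± 0.07, Neo1, a co-receptor in hepcidin control, with -0.72 ± 0.08, and Nfe2l2, encoding Nrf2, with -0.73 ± 0.07. Genes named next were picked after their values were seen. The iron regulatory proteins themselves, Aco1 and Ireb2, had log2 differences of 0.39 and 0.37 (adjusted p = 8.52e-04 and 0.00374, edgeR). Bach1, the haem-sensing repressor of Hmox1, had one of -0.44 (adjusted p = 0.00129, edgeR), and Spic, a factor of iron-recycling macrophages, one of 0.93 (adjusted p = 3.74e-04, edgeR).

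Vsig4, the complement receptor that the series is about, fell over the same days to 3.48, 3.73 and 3.75 FPKM at day 5, against 8.89, 9.35 and 8.31 FPKM at day 0.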

How the data were processed

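Poly(A) RNA of 6 libraries was sequenced as read pairs from strand-marked cDNA, per the labels' protocols. Tools listed in the submitters' processing notes are edgeR, StringTie, HISAT2 and fastp, with no version, beside the human build GRCh38. The treatment label reads RANKL for both days, so days were taken from the time label. The identifiers are mouse: 28722 of 28795 genes are in GENCODE M21 (GRCm38), with no mismatch of chromosome, and 90.4% have identical ends. The deposited table holds whole-number counts, which are not normalized per the file headers and values, and FPKM that the authors scaled for gene length and depth. In every library more genes had a count of 4 than of 3 or 5, so mates of a pair may have been counted singly.

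Genes that reached an FPKM of 1 in 3 or more of the 6 libraries were tested in edgeR 4.0.16 (R 4.3.3) with TMM scaling, all 10 members among them. Each standard error is the size of the log2 difference over the square root of its F statistic. The fit was tested on simulated data first. No pair of libraries of a day differed as little as sampling noise (smallest chi-square per degree of freedom 14.5). Alternatives used limma 3.58.1, DESeq2 1.42.0, other scalings and filters, each library left out, and a replicate block. Copies were found with blastn 2.17.0. Figures used matplotlib 3.10.9.

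Named genes are the 10 members, up to 3 called genes with the largest difference from each list (the most abundant where none was called), and Vsig4. Other genes of the lists, the pair partner Slc11a2, partners that share reads or exons, and the genes of the closing observations were named after their values were seen. Markers of neutrophils (2 of 4 tested rose, 2 fell) and lymphocytes (1 rose, 1 fell, of 2) were low, at summed levels of 11.2 to 27.3 and 6.36 to 7.15 FPKM at day 5 and 10.6 to 17.3 and 7.20 to 9.66 FPKM at day 0. The members and lists were chosen with earlier results of these data known.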

Additional observations from a re-analysis of the deposited data

How the results depend on the processing

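Of 180 repeats for single members, 172 kept the direction and the side of the threshold; 5 lost the call, all for Blvrb, and 3 gained it, for Blvra, Fth1 and Ftl1 when the size threshold was dropped. No result reversed. Without the size threshold the test gave 8 members lower at day 5, 38 other haem and iron genes higher and 21 lower, and 3173 genes higher and 3435 lower in all. The count of all genes called higher was 1244 with no filter on low values and 1234 with filterByExpr, against 695, and that of genes called lower was 438 in limma on log2(FPKM + 1), against 770. Leaving out 1 library at a time gave 4 to 5 members lower, 1 higher, 5 to 8 other haem and iron genes higher and 6 lower. Without Blvrb's 2 high libraries of day 0 in turn, its log2 difference was -0.98 and -0.92; on library totals without TMM it was -0.99, and in limma on log2(FPKM + 0.1) it was -0.97. Without CT010467, an alternative added after seeing the data, 5 members were lower and 1 higher. Replicate numbers did not pair the libraries: deviations of same-numbered libraries correlated at -0.073, 0.147 and 0.026. With a replicate block 697 genes were higher and 773 lower, 5 members were lower and 1 higher, and no member's call changed. The difference between days of the 5 pair ratios moved by less than the replicate spread in all 35 repeats. The ribosomal RNA-related list fixed at the start matched only Lars2, and its removal left 5 and 1. Each member had at least 2641 counts per library, and precision is limited by the 3 libraries a day.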

Other observations

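The hairpin match in a UTR was also found in tested genes that are not members. Ftl1-ps1, named as a ferritin light chain pseudogene, holds it in the 5′ UTR like the ferritins and Slc40a1 and had 38.7, 37.6 and 33.9 FPKM at day 5 and 57.5, 56.2 and 54.1 FPKM at day 0, with a log2 difference of -0.67. Another 6 genes hold the match in the 3′ UTR like Tfrc, and their log2 differences ran from -0.77 for Rab11fip5 to 0.63 for Zbtb44.

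Ncoa4, the receptor that carries ferritin to the lysosome, had 29.7, 30.7 and 31.0 FPKM at day 5 and 15.4, 16.7 and 15.2 FPKM at day 0. Its log2 difference was 0.89 (adjusted p = 5.69e-07, edgeR), under the size threshold. The pseudogene Ncoa4-ps stood at nearly the same level, at 30.3, 30.6 and 31.3 FPKM at day 5 and 15.7, 15.9 and 14.5 FPKM at day 0, so the reads of the pair may be shared between them. Flvcr1, a haem exporter, had a log2 difference of 0.96 (adjusted p = 1.18e-06, edgeR), and Cisd1, an iron-sulfur protein of the outer mitochondrial membrane, one of 0.93 (adjusted p = 1.13e-05, edgeR).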
